A study of Mus musculus with 2 samples.

Results

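The 10 genes described here are those that mark or drive the passage from an epithelial to a mesenchymal state: Cdh1, Epcam, Cldn6, Crb2, Cdh2, Fn1, Vim, Snai1, Zeb1 and Zeb2. They were taken by symbol, and all 10 were found among the 32285 genes of the RNA matrix. Of the 229480 accessibility peaks in the same matrix, 215 lay within 50 kb of a listed start of 1 of these genes. The data came from mouse embryos at embryonic day 7.0 (E7.0) that were pooled and dissociated before their nuclei were isolated. Nuclear RNA and chromatin accessibility were read from the same nuclei by 10x Genomics multiome sequencing, as 1 library each, and both libraries shared all 15341 barcodes. No treatment or genotype is compared, so every comparison below is between classes of nuclei in 1 pool, which has no replicate and supports no p-value. All intervals are exact 95% intervals that cover counting error only.

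The labels conflict about the source of the material. The title and age entries give E7.0, while other entries name goblet cells, strain RedMUC298trTg, and the eighth section of the small intestine for the RNA or the distal colon for the accessibility. A list of goblet and intestinal epithelial markers summed to between 7.86 and 27.1 CPM (UMIs, which count unique RNA molecules, as a rate per 1000000 UMIs of the class) in 8 of the 9 named classes described below and to 85.3 CPM in the visceral endoderm-like class. By the same measure the epiblast list reached 3080 CPM in epiblast-like nuclei, the embryonic mesoderm list 2286 CPM in embryonic mesoderm-like nuclei and the visceral endoderm list 15365 CPM in visceral endoderm-like nuclei. The strain entry could not be checked here, and the number of embryos pooled was not given in the labels used.

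In an epithelial to mesenchymal transition, cells joined side by side by adherens and tight junctions lose those contacts and their apical to basal polarity and become migratory. In the gastrulating mouse embryo this takes place at the primitive streak, where epiblast cells ingress and leave as mesoderm. Transcription factors of the Snail and Zeb families bind E-box sequences (CACCTG, or CAGGTG on the other strand) and repress E-cadherin and other epithelial genes, while N-cadherin and fibronectin are typical of the cells that have left. The extraembryonic ectoderm and the visceral endoderm around the embryo stay epithelial, and parietal endoderm is a migratory cell type that arises from primitive endoderm.

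For the transcription factors above, the promoters of the targets and of the factors themselves are of interest. RefSeq promoter entries (build GRCm38.p6) were present for 6 of the 10 genes (Snai1, Zeb2, Vim, Crb2, Epcam and Cldn6). These 6 genes had 9 entries, 4 of them of Zeb2, and 3 of the 9 (Epcam, Snai1 and Cldn6) held an E-box of these 6 bases in the 250 bases before the start. Over all promoter entries, 5657 of 32851 windows of the same length (17.2%) held one. The 4 sequences below are shown because they pair promoters that hold the E-box with promoters that do not; each is the strand of the gene, 5′ to 3′, and capitals mark the E-box. Epcam lies on the plus strand at chr17:87635729-87635978, Snai1 on the plus strand at chr2:167537945-167538194, Crb2 on the plus strand at chr2:37775999-37776248, and Zeb2 on the minus strand at chr2:45117443-45117692.
Epcam: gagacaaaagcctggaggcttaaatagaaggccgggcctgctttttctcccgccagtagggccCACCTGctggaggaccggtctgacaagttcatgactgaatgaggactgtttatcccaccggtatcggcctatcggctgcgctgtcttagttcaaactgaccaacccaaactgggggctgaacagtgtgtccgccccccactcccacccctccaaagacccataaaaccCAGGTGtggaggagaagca
Snai1: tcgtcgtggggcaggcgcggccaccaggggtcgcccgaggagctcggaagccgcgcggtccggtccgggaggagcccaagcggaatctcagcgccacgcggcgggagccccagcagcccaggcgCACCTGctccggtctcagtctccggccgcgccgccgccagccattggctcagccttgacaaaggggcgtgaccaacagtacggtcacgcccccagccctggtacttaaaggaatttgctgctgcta
Crb2: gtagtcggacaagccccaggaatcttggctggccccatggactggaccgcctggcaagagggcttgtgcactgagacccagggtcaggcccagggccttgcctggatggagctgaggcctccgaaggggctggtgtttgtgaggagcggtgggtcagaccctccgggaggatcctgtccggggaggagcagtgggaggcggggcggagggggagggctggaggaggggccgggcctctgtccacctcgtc
Zeb2: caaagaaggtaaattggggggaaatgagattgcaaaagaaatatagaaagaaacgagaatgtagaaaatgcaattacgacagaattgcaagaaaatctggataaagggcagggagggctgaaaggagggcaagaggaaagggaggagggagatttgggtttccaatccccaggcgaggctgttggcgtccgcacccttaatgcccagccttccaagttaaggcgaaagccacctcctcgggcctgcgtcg
The E-boxes of Epcam began at positions -187 and -19, counted back from the base before the start as -1. The single E-box of Snai1 began at -126 and that of Cldn6 at -93. The Cldn6 match lay after another listed start of that gene, outside the 134 bases before all of its listed starts, which held 0 matches, and it is not printed here. The printed Epcam, Snai1 and Crb2 sequences each fell inside a deposited promoter peak. A match is a description of the letters and not evidence of binding.

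After filters on depth and doublet calls, 12796 nuclei (83.4% of barcodes) remained, with a median of 10471 UMIs and 17350 peak counts. Classes were made in a crossed way: RNA of the 10 genes was read in clusters made from accessibility with the 215 peaks left out, and their peaks were read in clusters made from RNA with the 10 genes left out. Classes were named from marker lists that held none of the 10 genes. Among accessibility clusters, 3822 nuclei were epiblast-like, 857 primitive streak-like and 1511 embryonic mesoderm-like, with median UMIs of 9915, 11065 and 10487. A further 666 were haemato-endothelial progenitor-like, 958 anterior streak, node and definitive endoderm-like, 1177 visceral endoderm-like and 29 parietal endoderm-like. The trophoblast classes held 1209 extraembryonic ectoderm-like and 374 ectoplacental cone and giant cell-like nuclei, and 2193 nuclei (17.1%) stayed unnamed. The embryonic mesoderm-like class was mixed in RNA terms: 62.7% of its nuclei fell in the RNA class of the same name and 21.6% in an extraembryonic mesoderm-like RNA class. Of the streak-like nuclei, 66.3% were streak-like and 17.5% epiblast-like by RNA. The epiblast-like class was mixed too, with 75.6% epiblast-like and 13.5% streak-like by RNA (516 nuclei, against 568 in the streak-like class). Visceral endoderm markers summed to 1123, 1035 and 1059 CPM in the epiblast-like, streak-like and mesoderm-like classes and to 15365 in the visceral endoderm-like class, so these markers stood at a near-equal low level along the 3 classes. Extraembryonic ectoderm markers were not level, at 194.1 to 309.1 CPM in the epiblast-like clusters, 411.1 in the streak-like one and 485.1 and 491.7 in the mesoderm-like ones. Haemato-endothelial progenitor markers stood at 34.2 to 42.5, at 43.7, and at 185.1 and 222.3 CPM in the same order. Primitive streak markers summed to 156.5, 558.8 and 573.1 CPM along the same classes and to 524.0 in the anterior streak class, so they did not set the streak-like class apart from mesoderm; epiblast markers were 3080, 2062 and 691.8 and embryonic mesoderm markers 113.8, 189.1 and 2286. Their part in the results below was not tested.

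From epiblast-like to embryonic mesoderm-like nuclei, the 3 epithelial junction genes Cdh1, Epcam and Cldn6 were lower, and Cdh2, Fn1, Snai1, Zeb1, Zeb2 and Crb2 were higher. Counting a gene as changed at 2-fold or more, 6 of the 10 were higher and 3 lower, while 6.55% of all 15292 genes with at least 50 UMIs over both classes were higher and 11% lower. Vim was the gene that stayed under 2-fold. The median log2 ratio over the 10 genes was 2.50 and that over all genes tested was -0.0013.

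Cdh1 encodes E-cadherin, the adhesion molecule of epithelial adherens junctions. It stood at 346.8 CPM in epiblast-like, 253.5 in streak-like and 41.8 in mesoderm-like nuclei. The mesoderm-like level was 0.121 times the epiblast-like level (0.112 to 0.130), and the streak-like level was 0.731 times it (0.701 to 0.762). Most of the difference thus lay between the streak-like and mesoderm-like classes. In nuclei thinned to 5000 UMIs each, Cdh1 was detected in 76.5%, 64.5% and 15.9% of the 3 classes in the same order, against 87.3%, 83.8% and 30.5% before thinning. The haemato-endothelial class, where Cdh1 was lower still, had 13.0% after thinning at a median of 10194 UMIs, so the share in mesoderm-like nuclei was close to the lowest share found in a class of this size.

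Epcam encodes an epithelial surface adhesion molecule and Cldn6 a claudin of tight junctions. Epcam stood at 363.5, 259.3 and 104.8 CPM in epiblast-like, streak-like and mesoderm-like nuclei, which put the mesoderm-like class at 0.288 times the epiblast-like one (0.274 to 0.303). For Cldn6 the levels were 125.7, 79.0 and 45.0 CPM, with a ratio of 0.358 (0.331 to 0.386). Both genes kept a larger part of their epiblast level than Cdh1 did, and their intervals did not overlap that of Cdh1. In the streak-like class neither reached a 2-fold difference from epiblast, at 0.713 for Epcam and 0.628 for Cldn6.

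Crb2 encodes a Crumbs protein, an organizer of apical polarity that is needed in the mouse for cells to ingress at the streak. It did not follow the other epithelial genes: its RNA was 5.97 CPM in epiblast-like, 11.4 in streak-like and 29.7 in mesoderm-like nuclei. The mesoderm-like level was 4.97 times the epiblast-like level (4.25 to 5.83), on 495 and 240 UMIs. The streak-like level was 1.92 times that of epiblast (1.52 to 2.40), just under the 2-fold line.

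Cdh2 encodes N-cadherin and Fn1 the matrix protein fibronectin. Cdh2 stood at 101.5, 221.5 and 1037 CPM in epiblast-like, streak-like and mesoderm-like nuclei, a 10.2-fold difference between the end classes (9.87 to 10.6). Fn1 stood at 145.5, 368.3 and 1453, a 9.98-fold difference (9.70 to 10.3). Both were already over 2-fold higher in streak-like nuclei, at 2.18 for Cdh2 and 2.53 for Fn1. The intermediate filament gene Vim behaved otherwise, with 21.0, 17.8 and 27.2 CPM and a mesoderm to epiblast ratio of 1.29 (1.15 to 1.45). Its mesoderm-like level came from 453 UMIs, so a 2-fold difference lay outside the interval.

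Among the transcription factors, Snai1 stood at 17.9, 42.5 and 166.5 CPM along the 3 classes, and its mesoderm to epiblast ratio was 9.28 (8.55 to 10.1). Zeb2 followed a like course at 66.8, 162.6 and 427.2 CPM, with a ratio of 6.40 (6.12 to 6.69). Zeb1 was low in both epiblast-like and streak-like nuclei, at 5.90 and 8.43 CPM, and stood at 60.3 in mesoderm-like nuclei. Its ratio was 10.2 over the whole course (8.87 to 11.8) but 1.43 for streak over epiblast (1.11 to 1.84). Snai1 and Zeb2 were thus over 2-fold higher in the streak-like class, at 2.37 and 2.43, and Zeb1 was not. Their 3 streak over epiblast intervals put Zeb1 below both others, since its upper bound of 1.84 lay under the lower bounds of 2.10 and 2.29.

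In the streak-like class, Cdh1, Epcam, Cldn6, Vim, Zeb1 and Crb2 were within 2-fold of epiblast, with Vim at 0.849 and Crb2 at 1.92 times it. Against epiblast, 4 of the 10 genes were at least 2-fold higher (Cdh2, Snai1, Zeb2 and Fn1) and 0 were lower, with 1.92% of 14916 tested genes higher and 3.38% lower. Against the streak-like class, mesoderm-like nuclei had 6 genes higher (Cdh2, Snai1, Zeb1, Zeb2, Fn1 and Crb2) and 2 lower (Cdh1 and Epcam), with 4.91% of tested genes higher and 6.22% lower. For each of these 6 higher genes the mesoderm over streak ratio was above the streak over epiblast ratio: 7.15 for Zeb1, 4.68 for Cdh2, 3.95 for Fn1, 3.92 for Snai1, 2.63 for Zeb2 and 2.60 for Crb2. The intervals of both ratios overlapped for Zeb2 and Crb2. The streak-like class was a single cluster, and at a lower clustering resolution no accessibility cluster was named streak-like.

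**Figure D1:**
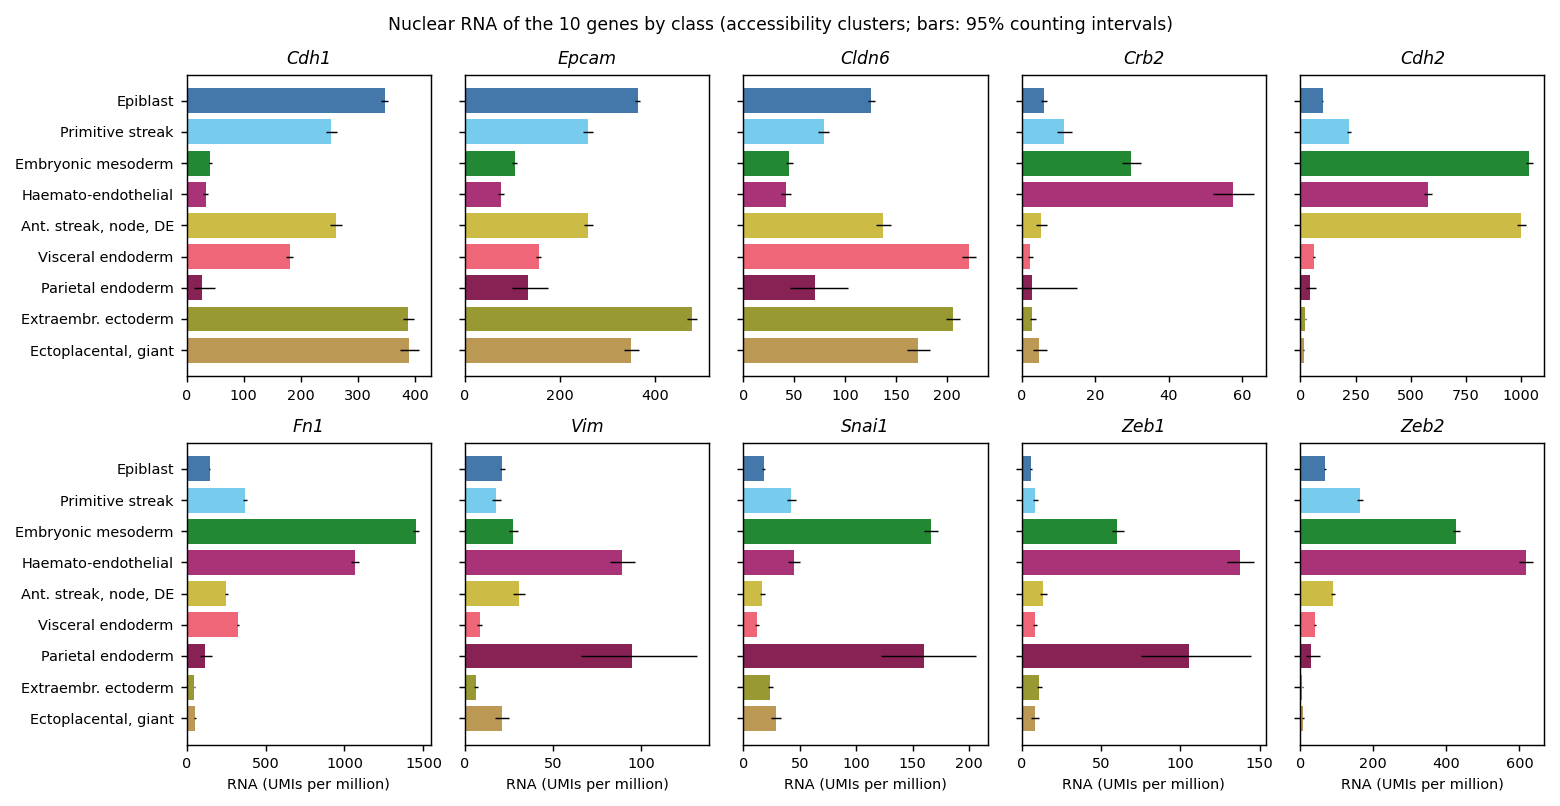
RNA of the 10 genes in CPM (horizontal axes, linear from 0, with a separate scale for each gene) in the 9 named classes of accessibility clusters; bars are summed counts and lines 95% counting intervals. Cdh1, Epcam and Cldn6 are low in the mesoderm and haemato-endothelial rows, Cdh2 is 1000.5 in the anterior streak row and 1037 in mesoderm, and the parietal endoderm row rests on 29 nuclei.

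The same course was also read from an ordering of nuclei. Nuclei of the 3 classes were projected on the line from the epiblast-like to the mesoderm-like centre in accessibility space and put in 10 bins of 619 nuclei. The first 7 bins were mainly epiblast-like (67.5% of nuclei in bin 7), bin 8 mixed 17.8% epiblast-like, 38.0% streak-like and 44.3% mesoderm-like nuclei, and the last 2 bins were at least 99.8% mesoderm-like. Cdh1 went from 391.3 to 25.8 CPM between the end bins, a 15.2-fold lower level. Cdh2 went from 60.5 to 1100.0, which was 18.2-fold. Snai1 went from 12.2 to 168.6, Zeb1 from 5.40 to 78.4, Zeb2 from 37.1 to 486.9 and Fn1 from 107.6 to 1494 CPM. Crb2 went from 3.84 to 33.3.

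The point at which each gene had covered 50% of its change was bin 8 for Cdh1, Epcam, Cldn6, Snai1 and Fn1, and bin 9 for Cdh2, Zeb1, Zeb2 and Crb2. All 9 genes that changed along the axis crossed within 2 neighbouring bins, of which bin 8 held nuclei of all 3 classes and bin 9 almost only mesoderm-like ones. Mesoderm-like nuclei made up 0% of bin 7, 44.3% of bin 8 and 99.8% of bin 9. A crossing in these 2 bins thus follows largely from how the bins were filled, and it does not show that the genes change together. On an axis made from RNA without the 10 genes, with bins of 524 or 525 nuclei, Epcam and Cldn6 crossed in bin 8, Cdh1, Cdh2, Snai1, Zeb2, Fn1 and Crb2 in bin 9, and Zeb1 in bin 10. Bin 8 of the RNA axis held 79.4% streak-like, 20.6% epiblast-like and 0% mesoderm-like nuclei, and bin 9 held 89.7% mesoderm-like ones. Bins of the same number are thus not alike on the 2 axes. The order within the pair of bins was not the same on the 2 axes. It was also not resolved for Cdh2, Zeb2 and Crb2 on the accessibility axis, where the bin 8 intervals (558.7 to 597.1, 238.3 to 263.7 and 14.3 to 21.1 CPM) held the midpoint between the end bins. The same was so for Zeb1 in bin 9 of that axis and for Epcam and Crb2 in bin 8 of the RNA axis. Vim was under 2-fold on both axes, at 22.3 in the first and 22.1 in the last accessibility bin.

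**Figure D2:**
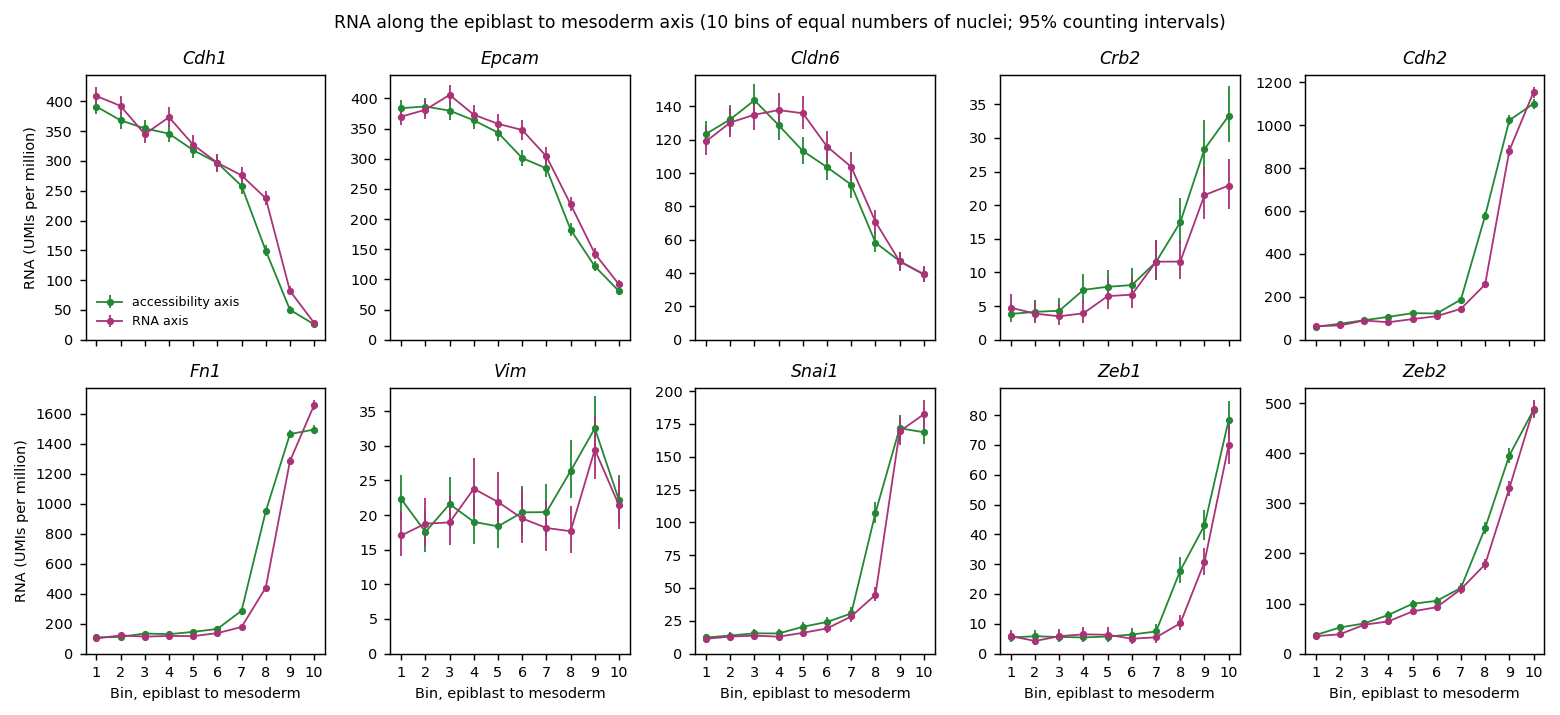
RNA in CPM (vertical axes, from 0, scaled for each gene) in 10 bins of nuclei ordered from epiblast to mesoderm (horizontal axis), on the accessibility axis (green) and the RNA axis (purple); lines at points are 95% counting intervals. Snai1, Fn1, Cdh2 and Zeb1 change mostly after bin 7, Cdh1 declines over all bins from 391.3 to 25.8 on the accessibility axis, and Vim stays between 17.1 and 32.5 on both.

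A gain of N-cadherin and a loss of E-cadherin can occur in the same nucleus or in different ones. In streak-like nuclei thinned to 5000 UMIs, 254 of 832 (30.5%, 27.4 to 33.8) held a UMI of both Cdh1 and Cdh2. The product of the 2 separate shares, 64.5% and 48.1%, was 31.0%, so joint detection was near what independent detection would give. The joint share and the product were 24.3% and 24.8% in epiblast-like nuclei and 14.9% and 15.1% in mesoderm-like nuclei. In the anterior streak class they were 54.9% and 55.6%. Within these classes, nuclei with Cdh2 thus held Cdh1 about as often as nuclei without it: 63.5% and 65.5% in the streak-like class. Unthinned, 57.2% of streak-like nuclei held both.

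For the repressors, the share of streak-like nuclei with Cdh1 was 56.7% (47.9 to 65.2) among 134 with a Snai1 UMI and 66.0% (62.4 to 69.6) among 698 without. In mesoderm-like nuclei it was 9.76% (6.64 to 13.7) among 297 with Zeb1 and 17.6% (15.4 to 20.04) among 1083 without. The Snai1 intervals overlapped and the Zeb1 intervals did not. For Zeb2 in streak-like nuclei the shares with and without were 64.5% and 64.6%, and for Zeb1 there 60.0% and 64.7%, on 30 nuclei with Zeb1. In mesoderm-like nuclei they were 14.8% and 17.3% for Snai1, and Cdh1 was found in 163 of 1087 nuclei with Zeb2 and 57 of 293 without. In epiblast-like nuclei they were 72.6% and 76.9% for Snai1, 73.5% and 76.6% for Zeb1, and 73.7% and 77.4% for Zeb2. Of these 9 pairs, the intervals were apart only for Zeb1 in mesoderm-like nuclei. Nuclei of 1 class share a library and a cluster, and where they lie within the class was not held fixed in these shares.

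The anterior streak, node and definitive endoderm-like class had Cdh1, Epcam and Cldn6 within 2-fold of epiblast and Cdh2 slightly below the mesoderm level. Cdh2 stood at 1000.5 CPM (981.0 to 1020.2), against 1037 (1021.5 to 1052.5) in mesoderm, and was 9.86 times the epiblast-like level (9.50 to 10.2). Embryonic mesoderm markers moved with it, at 1309 CPM here against 113.8 in epiblast and 2286 in mesoderm, and were above the class's own list (1119). Their part in the Cdh2 level was not tested. Cdh1 stood at 261.4, or 0.754 times epiblast (0.723 to 0.786). Snai1 was 16.7 CPM, with a ratio of 0.931 (0.782 to 1.10) that included 1, and Epcam and Cldn6 were 260.0 and 137.3. Of the 10 genes, Cdh2 and Zeb1 (2.29-fold, on 136 UMIs) were at least 2-fold higher than epiblast and 0 were lower, with 5.81% of tested genes higher and 6.37% lower. Compared with the streak-like class, Cdh2 was 4.52-fold higher and Snai1 and Crb2 were lower, at 0.393 and 0.452, with 4.95% of tested genes higher and 2.92% lower. The 3 levels of Cdh1, 253.5 in the streak-like class, 261.4 here and 346.8 in epiblast, put the first 2 within counting error of each other.

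**Figure D3:**
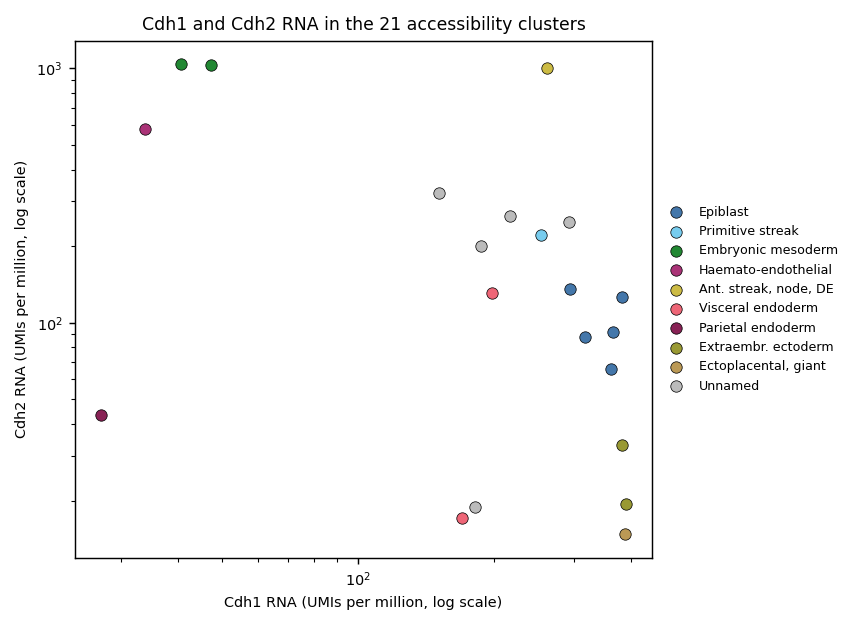
Cdh1 (horizontal) against Cdh2 (vertical) RNA, both in CPM on log axes, for the 21 accessibility clusters, coloured by class. Mesoderm and haemato-endothelial clusters lie at the upper left, trophoblast clusters at the lower right, and the anterior streak cluster at the upper right with 261.4 for Cdh1 and 1000.5 for Cdh2.

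The haemato-endothelial progenitor-like class had Cdh1, Epcam and Cldn6 low, and its levels of Snai1, Zeb1 and Vim differed from embryonic mesoderm by 2-fold or more. By RNA, 38.9% of its nuclei were haemato-endothelial progenitor-like and 56.8% extraembryonic mesoderm-like. Against epiblast, 7 of the 10 genes were at least 2-fold higher and 3 lower, with 8.46% of tested genes higher and 12.4% lower. Against embryonic mesoderm, Zeb1 was 2.28-fold higher (2.09 to 2.50) at 137.8 CPM, and Vim 3.29-fold higher (2.91 to 3.72) at 89.3. Snai1 was lower, at 44.6 CPM and 0.268 times the mesoderm level (0.238 to 0.301), and these were the 2 higher and 1 lower genes of that comparison, in which 5.01% of tested genes were higher and 4.60% lower. Zeb2 and Crb2 stood at 617.9 and 57.4 CPM, each the highest of the 9 classes. The order of these 2 classes was thus opposite for Snai1 and Zeb1.

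Among the extraembryonic epithelia, extraembryonic ectoderm-like nuclei had Cdh1 at 388.2 CPM and Epcam at 478.9, which were 1.12 (1.09 to 1.15) and 1.32 (1.28 to 1.35) times the epiblast-like levels. Cldn6 was 205.9, or 1.64 times epiblast. Zeb2 was at 5.94 CPM, the lowest level of the 9 classes and 0.0889 times epiblast (0.0720 to 0.109), and Cdh2 at 22.7 was 0.223 times epiblast (0.201 to 0.248). In all, 0 of the 10 genes were at least 2-fold higher and 5 were lower (Cdh2, Zeb2, Fn1, Vim and Crb2), with 9.96% of tested genes higher and 21.1% lower. Ectoplacental cone and giant cell-like nuclei had Cdh1 at 389.6, Cdh2 at 14.8 and Zeb2 at 7.29 CPM, and 0 genes higher and 3 lower (Cdh2, Zeb2 and Fn1) against backgrounds of 10.1% and 23.1%. Between the 2 trophoblast classes the intervals of Cdh1, Zeb2, Snai1, Zeb1, Fn1 and Crb2 overlapped. Those of Vim did not, at 20.7 CPM (17.0 to 25.0) in the ectoplacental cone class and 6.12 (4.99 to 7.43) in extraembryonic ectoderm, nor did those of Epcam (350.1 against 478.9), Cldn6 (172.1 against 205.9) and Cdh2 (14.8 against 22.7). The 108 Vim UMIs of the ectoplacental cone class came from only 34 of its 374 nuclei. After thinning, the shares of nuclei with Vim overlapped, at 3.35% (1.74 to 5.78) there and 3.79% (2.74 to 5.08) in extraembryonic ectoderm. In extraembryonic ectoderm-like nuclei a Zeb2 UMI was found in 5.96% before thinning, at a median of 12586 UMIs. In epiblast-like nuclei, also before thinning, 4.92% held a Zeb1 UMI and 5.68% a Crb2 UMI. The part of free RNA in such low shares was not tested.

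Visceral endoderm-like nuclei differed from both epiblast and trophoblast. Cdh1 stood at 180.3 CPM, 0.520 times epiblast (0.500 to 0.541), and Epcam at 155.1, 0.427 times (0.409 to 0.445). Cldn6 was the highest of the 9 classes at 221.6, and Fn1 at 325.9 was 2.24 times epiblast (2.16 to 2.32). By the 2-fold line 1 gene was higher (Fn1) and 3 were lower (Vim, Crb2 and Epcam), with 14.4% of tested genes higher and 22.2% lower. This class leaves out 2 unnamed clusters that carried visceral endoderm markers at its level, of 913 and 408 nuclei, with list sums of 13713 and 12738 CPM against 17400 and 12094 in the 2 clusters of the class. The cluster of 408 nuclei also had parietal endoderm markers at 2070 CPM, against 997 and 1034 in those 2, and 24.3% of its nuclei were parietal endoderm-like by RNA. With both added (2498 nuclei, chosen after the data were seen), Epcam stood at 239.7 CPM, 0.659 times epiblast (0.642 to 0.677), and Vim at 0.626, so neither was called. Cldn6 (2.34) and Fn1 (2.06) were then higher and Zeb2 (0.383) and Crb2 (0.277) lower, with 15.4% of tested genes higher and 19.9% lower. Cdh1 was 0.642, and Cdh2 turned from 0.599 to 1.24 times epiblast. With doublet calls kept, the class changed in makeup and 1 gene was called (Fn1 at 2.43), and the ratios of Cdh2, Snai1 and Zeb2, which were 0.599, 0.658 and 0.611 without a call, came to 1.34, 1.08 and 1.11. Compared with extraembryonic ectoderm, Fn1 was 6.48-fold and Zeb2 6.88-fold higher, Cdh2 2.68-fold higher, and Cdh1, Snai1 and Epcam were lower, at 0.465, 0.498 and 0.324, with 17.6% of tested genes higher and 12.8% lower. With the 2 unnamed clusters added, Cdh2 was 5.56-fold, Fn1 5.95-fold, Zeb2 4.303-fold and Vim 2.15-fold higher, and Cdh1, Snai1 and Epcam, at 0.574, 0.508 and 0.501, were no longer past the 2-fold line, with 18.4% of tested genes higher and 11.3% lower.

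The visceral endoderm-like class was made of 2 clusters that were not alike for Cdh2 and Zeb2. The cluster of 734 nuclei had Cdh2 at 17.1 and Zeb2 at 26.6 CPM, and the cluster of 443 nuclei had 131.0 and 63.8. Cdh1 was nearer, at 169.9 and 197.1, and Fn1 was 331.5 and 317.0. Epiblast markers also moved, from 614 to 1000 CPM, and visceral endoderm markers from 17400 to 12094. Their part in the difference was not tested. The unnamed cluster of 913 nuclei, led by Sfrp5, had visceral endoderm markers at 13713 CPM and was not named because a rival list, that of anterior streak, node and definitive endoderm, was also raised. By RNA, 38.4% of its nuclei were visceral endoderm-like and 61.2% unnamed. It combined Cdh1 at 291.9, Cdh2 at 248.9, Epcam at 374.7 and the highest Cldn6 of the 21 clusters at 400.3 CPM, with Zeb2 at 5.41.

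The parietal endoderm-like cluster held 29 nuclei, and its values are imprecise. Snai1 stood at 159.7 CPM (121.6 to 206.0), an interval that overlapped that of embryonic mesoderm, and Zeb1 at 105.6 (75.1 to 144.3). Cdh1 was 27.1 (13.0 to 49.8) on 10 UMIs, 0.0781 times epiblast. Cdh2 and Zeb2 were low at 43.3 and 29.8 CPM, unlike in mesoderm, and Vim was 94.8. Counted at 2-fold, 3 genes were higher than epiblast (Snai1, Zeb1 and Vim) and 5 lower (Cdh1, Cdh2, Zeb2, Crb2 and Epcam), with 13.2% and 31.2% of tested genes in each direction, and Crb2 rested on 1 UMI there (ratio 0.453, 0.0114 to 2.55).

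Across the 21 accessibility clusters, the levels of the 10 genes on a log2 scale were related as follows, as a description of clusters that share 1 library. The lowest of the 45 Pearson coefficients was that of Cdh1 with Zeb1 (-0.92) and the highest that of Cdh1 with Epcam (0.88). Cdh1 with Cdh2 gave -0.43, a lower size than Cdh1 with Snai1 (-0.76). Among 10687 genes, the 2 whose pattern was nearest were Ccdc88c and Esrp1 for Cdh1 (0.91 and 0.90), Pcdh7 and Dach1 for Cdh2 (0.98 and 0.95) and Rasgrp3 and Has2 for Fn1 (0.96 and 0.94). Esrp1 is an epithelial splicing regulator, and Has2 makes hyaluronan. For Snai1 they were Fgf3 and Slc35a1 (0.89 and 0.80), for Zeb1 Fgf3 and Kdr (0.93 and 0.91), for Zeb2 Asap1 and Kcnb2 (0.93 and 0.93), for Crb2 Ccnd2 and Vcan (0.93 and 0.93), for Vim Kif26b and Ttbk2 (0.85 and 0.84), and for Epcam Utf1 and 2010204K13Rik (0.87 and 0.87). Utf1 and Kdr are also among the markers used to name classes.

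Other genes of the same process were read from a list of 70 genes in 3 groups, 64 of which had at least 50 UMIs over epiblast-like and mesoderm-like nuclei. Of 36 epithelial junction and polarity genes, 23 were at least 2-fold lower in mesoderm-like nuclei and 1 higher, with a median log2 ratio of -1.31; of all genes tested, 11% were lower and 6.55% higher. The lowest were the tight junction genes Marveld3 (-4.10), Ocln (-3.22) and Marveld2 (-2.81) and the desmosomal gene Pkp2 (-2.26). The highest were Dsp (1.93), which encodes desmoplakin of desmosomes, and the polarity genes Mpp5 (0.56), Pard3 (0.31) and Patj (0.18). Dsp stood at 61.1 CPM in mesoderm-like against 16.0 in epiblast-like nuclei, and was higher still in extraembryonic ectoderm-like (133.1) and visceral endoderm-like nuclei (75.6). In streak-like nuclei 5 of these 36 genes were lower and 0 higher, where 3.38% of all genes tested were lower and 1.92% higher.

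Of 14 mesenchymal adhesion and matrix genes, 7 were higher in mesoderm-like nuclei and 0 lower, with a median log2 ratio of 1.61, against the same 6.55% and 11% of all genes. Cdh11, another cadherin of mesenchyme, gave 4.97, the growth factor receptor Pdgfra 4.95, the matrix gene Tnc 4.73 and Fbn2, a fibrillin, 3.47. The lowest of this group were Mmp2 (-0.28), Sparc (-0.17), Msn (0.14) and Itgb1 (0.33). Cdh11 was also 5.66-fold higher in streak-like nuclei, a larger ratio than the 2.18 of Cdh2 there. Of 14 regulators, 6 were higher and 0 lower, with a median of 0.41, beside the same shares of all genes. The highest were the transcription factors Foxc1 (4.66) and Foxc2 (4.63), the ligand gene Tgfb1 (2.03) and Twist1 (1.90), and the lowest Tgfb2 (-0.32), Ctnnb1 (-0.11), Tcf3 (-0.06) and Net1 (-0.04). Snai2, a second Snail gene, was under the limit of 50 UMIs, on 10 UMIs in mesoderm-like nuclei. Of the junction group, 13 of 37 genes were higher and 4 lower than epiblast in extraembryonic ectoderm-like nuclei, where 9.96% of all genes tested were higher and 21.1% lower. In visceral endoderm-like nuclei 10 of 36 were higher and 5 lower, where 14.4% of all genes tested were higher and 22.2% lower. Beside the same shares, 0 of 13 mesenchymal genes were higher and 7 lower in extraembryonic ectoderm, and 4 of 13 higher and 5 lower in visceral endoderm. Of the regulators, 1 of 12 was higher and 5 lower in the first, and 2 of 11 higher and 4 lower in the second. In streak-like nuclei 2 of 13 mesenchymal genes were higher and 0 lower, and 0 of 11 regulators were called, beside 1.92% and 3.38% of all genes.

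Chromatin accessibility at the 10 genes was read in RNA classes, of which 3115 nuclei were epiblast-like, 1137 streak-like and 995 embryonic mesoderm-like. The RNA classes also held 1736 visceral endoderm-like, 1114 extraembryonic ectoderm-like, 1084 anterior streak-like, 715 extraembryonic mesoderm-like and 263 haemato-endothelial progenitor-like nuclei. Classes of the same name thus differ in size between the 2 assays. Of the 215 peaks, 17 overlapped the 1000 bp to either side of a listed start and are called promoter peaks (distances are to the centre of a peak), and 21 lay at the start of another gene. Their levels are given as CPM of all peak counts in a class. With at least 100 counts over both classes, 154 peaks were read for mesoderm-like over epiblast-like nuclei. At least 2-fold higher were 27 (17.5%), against 12.4% of 122795 peaks read in the whole matrix, and 26 (16.9%) were lower, against 16.3%. Their median log2 ratio was -0.09, and that of all peaks was -0.15. As 1 set, these peaks were near the background in both directions.

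Taken as groups of genes, the split followed the RNA. Around the 6 genes with higher RNA in mesoderm, 24 of 86 peaks (27.9%) were higher and 7 (8.14%) lower, beside 12.4% and 16.3% of all peaks. By gene, 6 of 25 were higher at Snai1, 6 of 23 at Crb2, 5 of 18 at Zeb2, 4 of 9 at Fn1, 3 of 8 at Cdh2 and 0 of 3 at Zeb1. The median log2 ratio at Snai1 was -0.012. Around the 3 genes with lower RNA, 2 of 58 (3.45%) were higher and 17 (29.3%) lower, beside the same shares. The promoter peaks of the first group included 0 of 10 that were higher and 1 that was lower, and those of the second group 3 of 5 that were lower. Of 21669 promoter peaks of all genes, 3.43% were higher and 5.95% lower, so 0 and 1 of 10 are near the share over all promoters. The number of peaks read differed between genes, from 3 for Zeb1 to 25 for Snai1.

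Summed over promoter peaks, accessibility in mesoderm-like nuclei was 0.502 times epiblast for Cdh1 (0.442 to 0.569), 0.523 for Epcam (0.464 to 0.587) and 0.339 for Cldn6 (0.283 to 0.403). For the 6 genes with higher RNA the ratios were between 0.896 and 1.40, with Cdh2 at 1.40 (1.27 to 1.54), Zeb2 at 1.31, Fn1 at 1.19, Snai1 at 1.16, Zeb1 at 0.911 and Crb2 at 0.896. The intervals for Zeb1 and Crb2 included 1. Vim was 1.17. The Zeb2 promoter peaks chr2:45109326-45110091 and chr2:45110801-45111647 also lie at the start of its antisense gene Zeb2os. The promoter peak of Zeb1 also lies at the start of Gm10125 and that of Fn1 at a start of Apol7d. Counts at these peaks cannot be given to 1 gene alone.

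**Figure D4:**
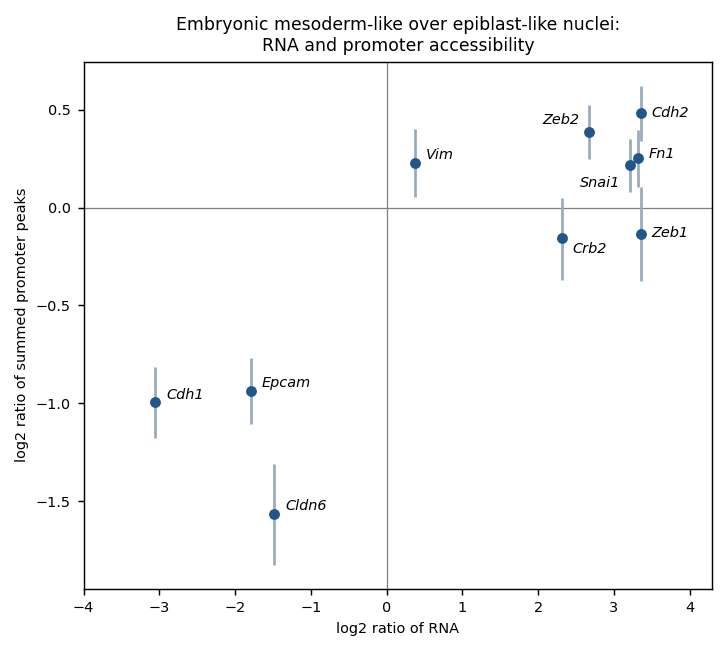
Log2 ratio of RNA (horizontal, accessibility classes) against log2 ratio of summed promoter peak counts (vertical, RNA classes), embryonic mesoderm-like over epiblast-like nuclei, for the 10 genes; vertical lines are 95% counting intervals. Cdh1, Epcam and Cldn6 lie low on both axes, and the 6 genes with RNA ratios between 2.31 and 3.36 have promoter values between -0.16 and 0.48.

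The promoter of Cdh1 held 2 peaks that differed. The one over the start, chr8:106602961-106603771, had 34.5 CPM in epiblast-like and 20.7 in mesoderm-like nuclei, a ratio of 0.599 (0.517 to 0.692). The one just inside the gene, chr8:106603971-106604675, had 17.1 and 5.23, a ratio of 0.306 (0.232 to 0.398). Along the RNA axis this second peak stood at 16.6 CPM in bin 1, 12.9 in bin 8, 8.09 in bin 9 and 3.78 in bin 10. Its low level was not particular to mesoderm. It was at 6.04 CPM in extraembryonic ectoderm-like nuclei (0.353 times epiblast, 0.272 to 0.454), where Cdh1 RNA was 388.2 CPM. In visceral endoderm-like nuclei it was at 6.38 CPM (0.373, 0.305 to 0.454). The Epcam peak that covers the sequence with the pair of E-boxes printed above, chr17:87635367-87636147, had 24.7 CPM in epiblast-like and 10.2 in mesoderm-like nuclei, a ratio of 0.412 (0.336 to 0.502). That peak also covers a listed start of Epcam, and the neighbouring peak, over another listed start, had a ratio of 0.604 (0.521 to 0.698). In visceral endoderm-like nuclei the peak with the E-boxes was lower than in mesoderm, at 7.34 CPM (0.298 times epiblast, 0.246 to 0.358). Snai1 RNA had its lowest level of the 9 classes there, at 11.8 CPM. The part of the Snail and Zeb factors in these peak levels was not tested. The Snai1 promoter peak, which holds the E-box of that gene, was at 50.3 and 58.4 CPM.

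The Cldn6 promoter peak, chr17:23679051-23679968, had 38.6 CPM in epiblast-like, 34.6 in streak-like and 13.1 in mesoderm-like nuclei. It was open in the other epithelia, with 36.9 in visceral endoderm-like and 37.2 in extraembryonic ectoderm-like nuclei, and lowest in haemato-endothelial nuclei at 4.77. A different peak of the same neighbourhood, 16204 bp after the Cldn6 start, was at 5.38 CPM in epiblast-like and 43.9 in mesoderm-like nuclei (8.16-fold, 6.82 to 9.79). It was at 43.8 in anterior streak-like nuclei too, where Cldn6 RNA was 137.3 CPM, above epiblast. A peak 28498 bp before the Cdh1 start had 50 counts in epiblast-like and 142 in mesoderm-like nuclei (8.00-fold, 5.08 to 13.0). At 11.5 CPM it was higher in anterior streak-like nuclei, where Cdh1 RNA was 261.4 CPM, than in mesoderm (6.87), so neither peak followed or opposed its gene in every class. The lowest other peaks of these genes were at 0.273 times epiblast for Cldn6 (18699 bp before the start) and 0.181 for Cdh1 (18473 bp into the gene, on 9 counts in mesoderm). That Cldn6 peak also lay at the start of another gene, Bicdl2, so its counts cannot be given to Cldn6 alone. For Epcam the highest other peak was at 1.10 and the lowest at 0.145. The Cldn6 peak at 8.16-fold and the Cdh1 peak at 8.00-fold were the 2 higher peaks around the 3 genes with lower RNA. A gene to which these 2 belong was not assigned.

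Among the genes with higher RNA in mesoderm, Snai1, Cdh2, Fn1, Zeb2 and Crb2 had their highest ratio at a peak away from the starts. At Snai1, the peak chr2:167563483-167564361, 25727 bp after the start, had 2.51 CPM in epiblast-like, 6.09 in streak-like and 44.4 in mesoderm-like nuclei. That is 17.7-fold between the end classes (13.9 to 22.9), on 146 and 918 counts. It was also open in extraembryonic mesoderm-like nuclei (26.5) and low in visceral endoderm-like (1.99) and anterior streak-like nuclei (4.68). Along the RNA axis it stood at 4.56 CPM in bin 7, 8.80 in bin 8, 39.4 in bin 9 and 45.8 in bin 10, while Snai1 RNA on that axis covered 50% of its change in bin 9.

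At Cdh2, the peak chr18:16786455-16787322, 22358 bp into the gene, had 14 counts in epiblast-like and 167 in mesoderm-like nuclei, a 33.6-fold ratio with a wide interval (15.6 to 86.1). In anterior streak-like nuclei, where Cdh2 RNA was 1000.5 CPM against 1037 in mesoderm, this peak held 12 counts, or 0.604 CPM against 8.08 in mesoderm. Along the axis it had 1 count in bin 8 and 64 in bin 9. At Fn1, the peak 28318 bp before the start went from 1.27 to 16.1 CPM (12.6-fold, 8.81 to 18.6) and was 4.28-fold higher in streak-like nuclei (2.84 to 6.54). It was also 3.74-fold higher in extraembryonic ectoderm-like nuclei (2.38 to 5.91), where Fn1 RNA was below epiblast. In visceral endoderm-like nuclei, where Fn1 RNA was above epiblast, it was 2.94-fold higher. At Zeb2, the peak 18981 bp into the gene went from 0.756 to 10.8 CPM (14.3-fold, 9.21 to 23.0), with 16.5 in extraembryonic mesoderm-like nuclei. At Crb2 the highest peak reached 3.29-fold and was higher in extraembryonic ectoderm-like nuclei (18.9) than in mesoderm (9.54), where Crb2 RNA had the opposite order. At Zeb1 the other 2 peaks were at 1.31 and 1.09, with intervals that included 1 and overlapped that of the promoter peak. The first of them lay 1472 bp into the gene and also at the start of Gm10125.

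Other peaks at the same genes were lower in mesoderm although the RNA was higher. The Snai1 peak 44285 bp after the start had 5.32 CPM in epiblast-like and 0.726 in mesoderm-like nuclei, a ratio of 0.136 (0.0642 to 0.257). A Cdh2 peak at another listed start, chr18:16669438-16670200, was at 0.158 (0.0317 to 0.484), on 107 and 6 counts, and was the 1 lower promoter peak of these genes. The lowest other peaks were at 0.421 for Zeb2 (6990 bp into the gene), 0.425 for Crb2 (44986 bp before the start), 0.834 for Fn1 (22392 bp before the start) and 0.891 for Cdh2 (2323 bp into the gene). The intervals of those of Fn1 and Cdh2 included 1. At Vim, whose RNA stayed under 2-fold, the promoter peaks were at 0.899 and 2.54 times epiblast (the second at 4.76 and 12.1 CPM), a peak 1624 bp before the start was at 0.274 (0.153 to 0.460), and the highest other peak was at 1.10.

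**Figure D5:**
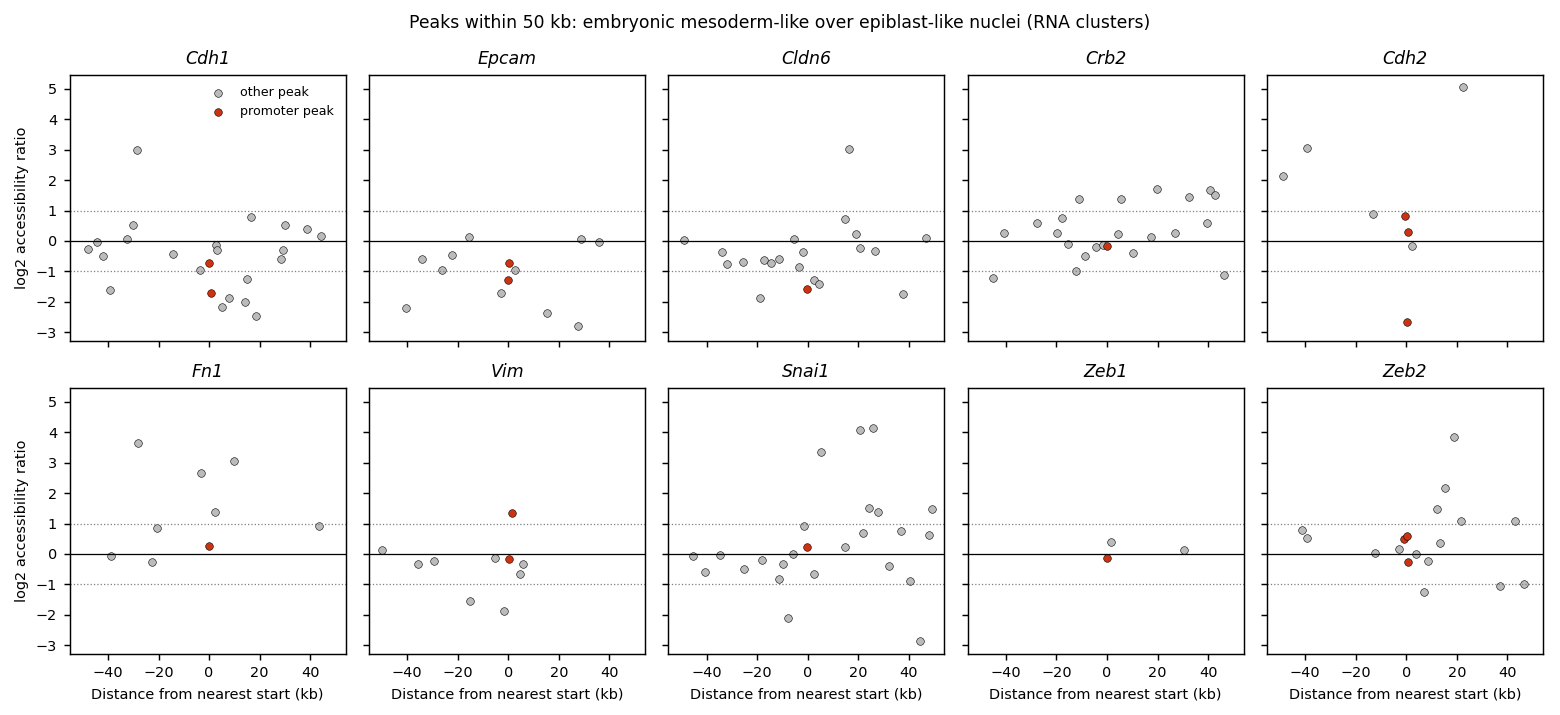
Log2 ratio of accessibility, embryonic mesoderm-like over epiblast-like nuclei (vertical), for the peaks read at each gene. The horizontal axis is the distance from the nearest listed start in kb. Positive values lie after the start in the direction of transcription, within the gene or beyond its end. Red points are promoter peaks, and dotted lines mark 2-fold. The points above 2-fold at Snai1, Cdh2, Fn1 and Zeb2 lie away from the start, with the highest at 5.07 for Cdh2, and Zeb1 has 3 peaks near 0.

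In the other epithelia, promoter accessibility and RNA had the same direction for some of the genes and not for others. In extraembryonic ectoderm-like nuclei, the summed promoter peaks of Zeb2 were at 0.201 times epiblast (0.161 to 0.248), those of Fn1 at 0.389 and those of Vim at 0.387, next to RNA ratios of 0.0889, 0.346 and 0.291. Cdh2 was 0.493. The promoter peaks of Cdh1 were at 0.694 (0.618 to 0.777) although its RNA was 1.12 times epiblast, and those of Epcam at 1.17. Snai1 was 1.35 and Zeb1 1.23, and neither gene had an RNA ratio past the 2-fold line. In visceral endoderm-like nuclei, Zeb2 was 0.417 and Crb2 0.494, while Cldn6 (0.956) and Cdh1 (0.946) had intervals that included 1. Fn1 was 0.882 (0.802 to 0.970) and Snai1 1.30 (1.20 to 1.41) there, next to RNA ratios of 2.24 and 0.658. The 1736 nuclei of the RNA class include 351 and 308 of the 2 unnamed clusters that those RNA ratios leave out. With both clusters added, the RNA ratios were 2.06 and 0.671. An accessible peak 50173 bp before Vim was highest in the visceral endoderm-like RNA class, at 18.7 CPM against 1.55 in epiblast, although Vim RNA was lower in visceral endoderm-like nuclei. It was also above epiblast in anterior streak-like (7.85), parietal endoderm-like (8.22) and haemato-endothelial nuclei (7.59). Vim RNA was highest in the parietal endoderm-like and haemato-endothelial classes, at 94.8 and 89.3 CPM.

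Counted over all read peaks of the 10 genes, 34 of 153 were at least 2-fold higher and 50 lower in extraembryonic ectoderm-like than in epiblast-like nuclei, where the whole matrix had 16.0% higher and 37.3% lower. In visceral endoderm-like nuclei 29 of 165 were higher and 53 lower, where the whole matrix had 19.3% and 37.5%. The genes differed within these sums. In extraembryonic ectoderm-like nuclei, 13 of the 15 Zeb2 peaks read were lower and 0 higher, while 7 of the 15 Epcam peaks were higher and 0 lower. A peak 27591 bp into the Epcam neighbourhood was at 13.8 CPM there against 3.01 in epiblast and 0.436 in mesoderm, and at 6.95 in visceral endoderm, which had less Epcam RNA than epiblast. Crb2 had 14 of 22 peaks lower in visceral endoderm-like nuclei and 12 of 21 lower in extraembryonic ectoderm-like nuclei, and its RNA was lower than epiblast in both.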

How the data were processed

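Counts were used as the authors deposited them: whole-number UMI counts per gene and counts per peak for each barcode, written by Cell Ranger ARC 2.0.0 per the file headers, on build mm10 per the submitters' processing notes. Settings of the peak caller are unknown from the labels and headers. Of nonzero peak values, 86.4% were even, as for 2 cut ends per fragment, so intervals for peaks used the count divided by 2.

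Barcodes were kept from 1000 UMIs, 500 genes and 1000 peak counts upwards and with mitochondrial UMIs of 20% or less, and 1154 doublet calls by Scrublet (7.52%) were removed. Clusters were made with scanpy 1.11.5 and leidenalg 0.10.2 at resolution 1, 21 from accessibility (30 components of a term-frequency transform without the first, peaks within 50 kb of the 10 genes left out) and 21 from RNA (2000 variable genes without the 10). A cluster was named where a marker list had a mean log2 ratio of at least 0.5 and at least 3 markers raised 1.5-fold, unless another list had more markers among the 10 leading genes of the cluster, or had as many there with at least 3 raised markers and a mean over 50% of the first. Clusters of low depth with no marker among those 10 genes were also left unnamed; 16 and 17 clusters were named, from 15 lists. UMI or peak counts were summed over a class, and ratios have exact conditional intervals from scipy 1.17.1, checked on simulated data. A call is 2-fold or more, with at least 50 UMIs or 100 peak counts over both classes.

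The members, the marker and gene lists and the naming rule were chosen with earlier results of these data known. Named beside the 10 genes are the 4 highest and 4 lowest log2 ratios in each group of the gene list, the 2 genes with the highest Pearson coefficient of log2(CPM + 1) among genes with at least 1000 UMIs (those for Cldn6 are not reported here), and for each gene the promoter peaks, singly or summed, and the highest and lowest other peak in mesoderm over epiblast. The 2 libraries are 1 pool of embryos, so no test was made.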

Additional observations from a re-analysis of the deposited data

How the results depend on the processing

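No paired analysis of samples was possible because there is 1 RNA library and 1 accessibility library, both of the same nuclei. Counts of genes called were recomputed with a stricter depth filter, doublet calls kept, clustering resolutions of 0.5 and 2, classes from the other assay, the 215 peaks kept in the clustering, and means over nuclei. Mesoderm over epiblast gave 9 genes under each of them. With doublet calls kept, visceral endoderm over epiblast gave 1 called gene in place of 4. With 2 unnamed clusters that carried visceral endoderm markers added to that class, an alternative chosen after the data were seen, it gave 4 genes, of which Fn1 and Crb2 were shared with the main call. Without thinning, the streak-like nuclei with UMIs of both Cdh1 and Cdh2 came to 57.2% in place of 30.5%; thinning removes UMIs by construction. The streak-like class was not named at resolution 0.5, so its 2 comparisons were not run there, and elsewhere streak over epiblast gave 3 to 5 genes. Of the ratios of single genes, 214 alternatives stayed within the main counting interval, 136 moved outside it and 0 of the called ones changed direction. Low counts limit Zeb1 and Crb2 outside mesoderm, all genes in the 29 parietal endoderm-like nuclei, and distal peaks such as that of Cdh2 with 14 counts in epiblast-like nuclei.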

Other observations

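Among the clusters that could not be named, a small one of 48 nuclei had markers of several cell types. Primordial germ cell markers summed to 539 CPM, the highest of the 21 clusters, primitive streak markers to 1133 and decidua markers to 63.5 CPM. Their part in the levels of the 10 genes was not tested. Fn1 stood at 929.4 CPM, Vim at 128.9 CPM and Crb2 at 29.0 CPM there, with Cdh1 at 150.7 and Cdh2 at 324.9 CPM. Its Vim level was the highest of the 21 clusters. Zeb2 was 85.3 CPM, lower than in either mesodermal class. In an unnamed cluster of 164 nuclei, Epcam stood at 421.2 CPM and Snai1 at 47.3 CPM, next to Cdh1 at 186.9 CPM. Visceral endoderm markers summed to 3119 CPM and epiblast markers to 2073 CPM there, and mitochondrial genes led the cluster. Another unnamed cluster, of 408 nuclei, with visceral endoderm markers at 12738 CPM and parietal endoderm markers at 2070 CPM, had Cdh1 at 181.3, Cdh2 at 18.9, Fn1 at 289.6 and Cldn6 at 255.2 CPM.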
